A study of Mus musculus with 9 samples.

Results

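Chemokines are small secreted proteins that steer the movement of cells, and 10 of their genes were examined in ribosome footprints of 3 mouse striatal cell lines. The genes were picked by symbol from the 36410 rows of the footprint table: Ccl2, Ccl5, Ccl7 and Ccl20, which encode CC chemokines, Cxcl1, Cxcl5, Cxcl10, Cxcl12 and Ppbp, which encode CXC chemokines, and Cx3cl1. Cx3cl1 encodes the CX3C chemokine, so 9 of the 10 genes fall under the heading of CC and CXC families and 1 does not. All 10 genes had a row, each with a count above 0 in at least 1 library. The filter on low counts kept 8 of them among the 12678 genes tested and left out Ccl20 and Cxcl5, which are given as counts.

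Ribosome profiling sequences the stretches of mRNA that ribosomes shield from nuclease, so a footprint count follows the number of ribosomes on the messages of a gene. The lines were immortalized striatal cells from C57/BL6 embryos that differed in the first exon of huntingtin. Control STHdhQ7/Q7 cells had 7 glutamines encoded by both alleles. HD-het STHdhQ7/Q111 cells had 1 allele of 7 and 1 of 111, and HD-homo STHdhQ111/Q111 cells had 111 on both. Libraries from 3 separate rounds of culture were made for each line, from monosomes of cells that had received cycloheximide, which halts elongating ribosomes, for 10 min before lysis, and they held 22504543 to 41888701 counts. Each genotype was represented by a single immortalized line, so an effect of the huntingtin alleles and a difference between lines of other origin cannot be told apart. In these bulk lysates, fewer cells making a chemokine and less of its RNA per cell cannot be told apart either, and without mRNA libraries here a footprint level does not separate mRNA abundance from ribosome load.

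Chemokines bind G protein-coupled receptors on leukocytes and other cells, and the families are named after the spacing of conserved cysteines near the amino terminus. Most are induced by cytokines or by microbial and cytosolic nucleic acids through NF-kB and interferon regulatory factors, while a few, such as Cxcl12, are made steadily and guide developing or resident cells. In the brain Ccl2 and Ccl7 draw monocytes, Cxcl1, Cxcl5 and Ppbp draw neutrophils through Cxcr2, Ccl5 and Cxcl10 draw T cells, and neuronal Cx3cl1 signals to microglia through Cx3cr1.

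Before the levels, the RefSeq sequence around 4 start sites is shown, because 3 of these genes had their highest footprint level in HD-homo cells and the last, Cx3cl1, in HD-het cells. The table of such windows (assembly GRCm38.p6, 250 bases before to 50 bases after the annotated start) held 6 of the genes, namely Ccl20, Cx3cl1, Cxcl1, Cxcl10, Cxcl12 and Ppbp. Each window is written 5′ to 3′ on the strand of the gene, with matches to 3 motifs in capitals: an NF-kB-like motif GGANNTTCC, an interferon response core GAAANNGAA and a TATA motif TATAAA, each searched on both strands. Cxcl10 is at chr5:92348840-92349139 on the minus strand, Cxcl1 at chr5:90890995-90891294 on the plus strand, Ppbp at chr5:90768268-90768567 on the plus strand and Cx3cl1 at chr8:94771930-94772229 on the plus strand.
Cxcl10: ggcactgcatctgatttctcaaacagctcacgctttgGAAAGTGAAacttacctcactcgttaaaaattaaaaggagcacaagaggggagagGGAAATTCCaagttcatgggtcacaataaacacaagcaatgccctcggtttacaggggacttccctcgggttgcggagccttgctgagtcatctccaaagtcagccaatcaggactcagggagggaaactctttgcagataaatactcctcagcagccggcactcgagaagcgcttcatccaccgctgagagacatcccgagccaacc
Cxcl1: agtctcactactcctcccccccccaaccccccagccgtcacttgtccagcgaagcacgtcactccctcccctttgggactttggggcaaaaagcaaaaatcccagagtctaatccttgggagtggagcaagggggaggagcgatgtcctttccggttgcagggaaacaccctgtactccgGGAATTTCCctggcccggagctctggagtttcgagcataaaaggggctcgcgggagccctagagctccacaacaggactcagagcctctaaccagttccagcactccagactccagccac
Ppbp: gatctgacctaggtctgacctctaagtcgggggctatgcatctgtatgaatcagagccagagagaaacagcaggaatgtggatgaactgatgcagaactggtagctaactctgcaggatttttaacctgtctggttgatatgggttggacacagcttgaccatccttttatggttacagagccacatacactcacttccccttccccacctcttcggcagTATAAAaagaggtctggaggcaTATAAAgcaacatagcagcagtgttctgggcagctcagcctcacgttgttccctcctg
Cx3cl1: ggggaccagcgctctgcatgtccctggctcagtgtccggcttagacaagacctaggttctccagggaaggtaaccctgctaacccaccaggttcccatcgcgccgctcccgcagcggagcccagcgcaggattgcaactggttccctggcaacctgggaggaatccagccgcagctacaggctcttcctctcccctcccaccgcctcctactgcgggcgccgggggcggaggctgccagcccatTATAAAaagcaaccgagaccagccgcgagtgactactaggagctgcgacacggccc

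The Cxcl10 window held 1 interferon response core, GAAAGTGAA, at position -213 from the start and 1 NF-kB-like match, GGAAATTCC, at position -158. The Cxcl1 window held 1 NF-kB-like match, GGAATTTCC, at position -70. The Ppbp window held the TATA motif at positions -30 and -8, and the Cx3cl1 window held it at position -6. None of the 3 motifs was found in the Ccl20 and Cxcl12 windows, which says only that these letters are not in them. Among all 32851 windows of this length the NF-kB-like motif was present in 4.26%, the interferon response core in 8.56% and the TATA motif in 13.6%. No match overlapped another, and a match describes the letters and does not show that a factor binds there.

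The label of striatal cells and the presence of cells that commonly make or receive chemokines were read from marker lists. Of 12 striatal neuron markers, the dopamine receptor genes Drd1 and Drd2 were at 0 in every library. The summed level of the list was 44.3 to 50.9 CPM (counts per 1000000 of the TMM-scaled library total) in control, 47.1 to 51.0 in the HD-het and 67.9 to 75.4 in the HD-homo cells. Foxp1 carried most of this sum, with means of 33.4, 43.1 and 56.9 CPM in the same order. Penk was also highest in HD-homo cells, with means of 1.42, 0.824 and 2.92 CPM. Ppp1r1b measured 6.42 to 16.1, 3.30 to 6.38 and 4.06 to 15.6 CPM, with overlap between control and HD-homo libraries. Among 11 markers of microglia and macrophages, Cx3cr1 and Tyrobp were at 0 and Aif1, Itgam and Adgre1 never exceeded 3 counts, with summed levels of 6.96 to 9.58, 22.7 to 35.6 and 7.42 to 8.59 CPM in the same order. Among 7 platelet and megakaryocyte markers, 5 were at 0 everywhere, and the sums were 0.865 to 1.30, 1.04 to 1.59 and 4.35 to 7.26 CPM. The 8 neural progenitor markers, which include Vim and Nes, summed to 9595 to 9859, 8991 to 9819 and 6016 to 6547 CPM, and the 9 mesenchymal markers to 8121 to 12596, 37099 to 46777 and 7725 to 10716 CPM. These sums are carried by a few genes and hide opposite shifts. Vim averaged 9228, 8275 and 6197 CPM in the same order, while Nes averaged 399.5, 1086 and 7.01 and Sox2 51.1, 33.9 and 2.26. Pax6 averaged 17.3, 24.8 and 0.0759 CPM, so these progenitor genes were lowest in HD-homo cells. Other genes of the list went the other way: Dlx1 averaged 2.71, 1.83 and 4.02 CPM and Dlx2 9.25, 2.11 and 19.9, both highest in HD-homo cells. Among the mesenchymal genes Col1a1 averaged 3343, 16518 and 4567 CPM, Acta2 4099, 8386 and 267 and Col1a2 24.0, 88.9 and 1027. The part of such shifts in the chemokine levels was not tested. The 6 endothelial markers summed to at most 2.41 CPM in any library. The 5 astrocyte markers summed to 2.29 to 3.93 CPM in control, 1.67 to 2.74 in HD-het and 11.7 to 14.0 in HD-homo libraries. Slc1a3 carried the higher HD-homo sum, with means of 1.67, 0.964 and 11.7 CPM in the same order, and its part in the chemokine levels was not tested.

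Chemokine footprints differed among the lines in all 8 genes tested (quasi-likelihood F test of edgeR for any difference, adjusted p at most 0.00693), beside 78.4% of all genes tested. Against control cells, HD-het cells had higher footprint levels of Ccl5, Cxcl10, Cxcl12, Cx3cl1 and Ppbp and lower levels of Ccl2, Ccl7 and Cxcl1. HD-homo cells had higher levels of Ccl2, Ccl7, Ccl5, Cxcl1, Cxcl10 and Ppbp and a lower level of Cx3cl1, with Cxcl12 short of the threshold. Set directly against each other, HD-homo exceeded HD-het cells in those 6 genes and was lower in Cxcl12 and Cx3cl1.

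Over all genes tested, 31.0% were higher and 29.1% lower in HD-het than control cells, beside 5 and 3 of the 8 chemokines. The shares were 23.3% higher and 22.3% lower in HD-homo against control cells, beside 6 and 1 of the 8, and 34.6% higher and 32.8% lower in HD-homo against HD-het cells, beside 6 and 2 of the 8. The libraries of the lines compared did not overlap in CPM for 8 of the 8 chemokines in HD-het against control cells, 5 in HD-homo against control cells and 8 between the mutant lines, where 71.2%, 55.5% and 69.5% of all genes did not overlap. The median log2 fold change (log2FC) of the 8 genes was 1.29, 3.02 and 5.05 in the 3 comparisons, against 0.02 in each over all genes. Ccl5 passed the filter only through its HD-homo libraries, so a difference in that gene was built into its being tested, and the 2 comparisons with control share the control libraries.

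**Figure D1:**
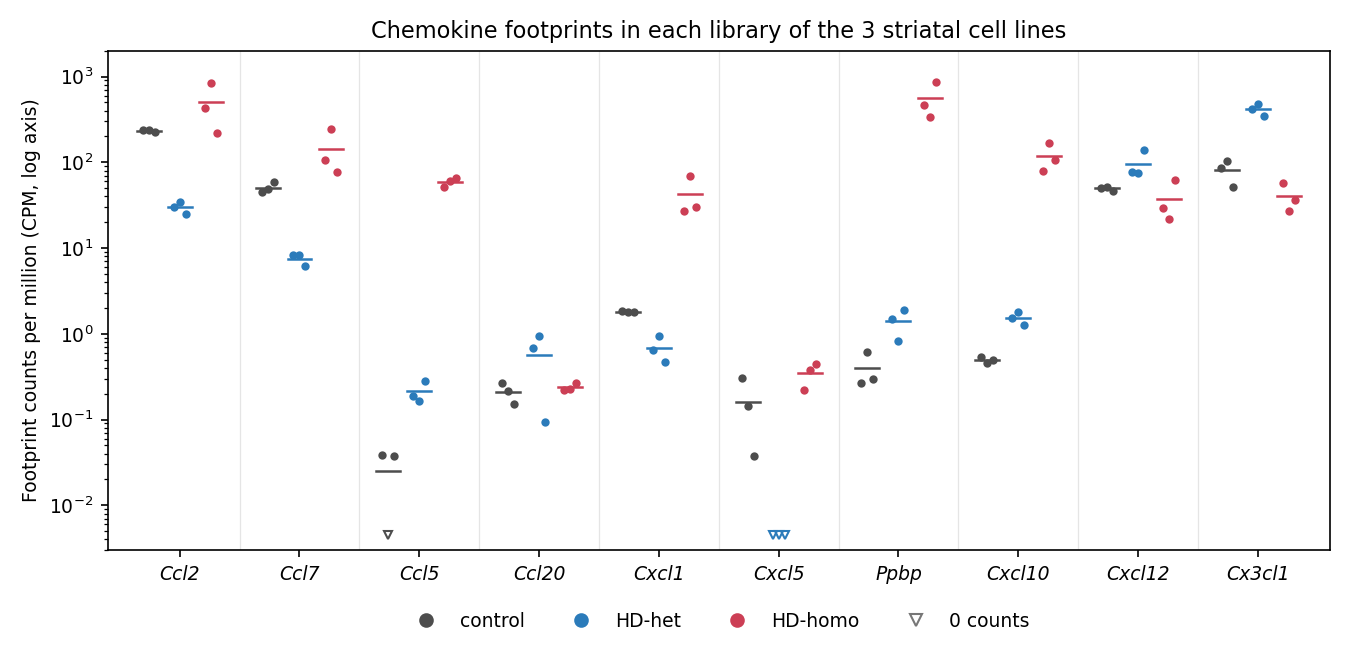
Footprint level of each chemokine gene in each of the 9 libraries, in CPM on a log axis, with 1 point per library, a bar at the mean of 3 and open triangles for a count of 0. The HD-homo points of Ccl5, Ppbp, Cxcl1 and Cxcl10 stand far above those of the other lines, whereas Cx3cl1 and Cxcl12 were highest in HD-het cells.

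The monocyte attractants Ccl2 and Ccl7, which lie next to each other on chromosome 11, moved down in the HD-het and up in the HD-homo cells. Ccl2 (chromosome 11, 82035577 to 82037452, plus strand, 3 coding exons) measured 235, 237 and 227 CPM in the control libraries, 29.8, 34.9 and 25.2 in HD-het and 428, 849 and 219 in HD-homo. All HD-het libraries lay below all others, while the lowest HD-homo library fell just under the control range. Ccl2 was thus 7.75-fold lower in HD-het than control cells (log2FC -2.95, SE 0.38, adjusted p = 5.51e-05) and higher in HD-homo than HD-het cells by a log2FC of 4.05 (SE 0.40, adjusted p = 4.55e-06).

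Against control cells the HD-homo level of Ccl2 was 2.14-fold higher (log2FC 1.10, SE 0.35, adjusted p = 0.0248). This call depended on HD-homo 2, without which the log2FC was 0.48 (adjusted p = 0.103). It was also lost without any 1 of the control libraries (adjusted p 0.0590 to 0.0676). The control libraries lay close together, and those fits hold fewer libraries, so this loss does not show reliance on 1 of them. In a fit of the 6 control and HD-homo libraries alone the call was lost as well (adjusted p = 0.0552).

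Ccl7 (chromosome 11, 82045712 to 82047525, plus strand, 3 coding exons) measured 44.8, 48.6 and 58.9 CPM in control, 8.20, 8.30 and 6.15 in the HD-het and 107, 244 and 76.8 in HD-homo libraries. Every library of a line was separate from those of the other lines. The log2FC was -2.74 in HD-het against control cells (SE 0.37, adjusted p = 7.67e-05), 1.49 in HD-homo against control cells (SE 0.33, adjusted p = 0.00366) and 4.23 between the mutant lines (SE 0.38, adjusted p = 2.54e-06). Without HD-homo 2, the library highest in both genes, the HD-homo rise of Ccl7 was 0.86 on the log2 scale and was still called. Per kilobase of coding sequence, Ccl2 exceeded Ccl7 by 2.53- to 3.45-fold in control, 2.39- to 2.76-fold in the HD-het and 1.88- to 2.62-fold in HD-homo libraries, ranges that overlap between neighbouring lines.

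Ccl5, which attracts T cells and is a common readout of interferon and nucleic acid sensing, was nearly confined to HD-homo cells. Its gene (chromosome 11, 83525778 to 83530518, minus strand, 3 coding exons) had counts of 1, 0 and 1 in control, 5, 6 and 6 in the HD-het and 1874, 1603 and 1480 in HD-homo libraries. The lines were separate, and the coefficient of variation of the HD-homo libraries was 11.6%, the smallest there among the 8 chemokines tested. The difference between HD-homo and HD-het cells was a log2FC of 8.17 (SE 0.21, adjusted p = 3.63e-10). With only 2 counts in all control libraries together, the ratio of pooled counts over TMM-scaled totals was 9.61 in HD-het (95% exact interval 2.28 to 85.8, counting error only) and 2776 in HD-homo against control cells (768 to 22926). A long noncoding RNA gene, Gm32650, overlaps Ccl5 in the annotation, and the use of strand in counting is not given in the sources used here.

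Ccl20, the ligand of Ccr6, stayed near the counting floor. Its gene (chromosome 1, 83116766 to 83119167, plus strand, 4 coding exons) had 7, 9 and 4 counts in control, 18, 34 and 2 in the HD-het and 8, 6 and 6 in HD-homo libraries. The HD-het libraries enclosed the values of both other lines, with replicate 3 below all of them. In a fit without the low-count filter the log2FC in HD-het against control cells was 1.48 (adjusted p = 0.0340). Fits that left out 1 library kept the filter, which Ccl20 passed there only through HD-het 1 and 2. A higher HD-het level was thus built into its being tested in them, and their p-values do not decide whether Ccl20 differed. Without any 1 control library the adjusted p was 0.0568 to 0.0919, and without any 1 HD-homo library 0.0372 to 0.0421. Without HD-het 3 the log2FC was 1.92 (adjusted p = 8.11e-04). Ccl20 was not tested without HD-het 1 or HD-het 2, so the call depends on which libraries are kept.

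The neutrophil attractants that signal through Cxcr2 lie in a row on chromosome 5, and Ppbp and Cxcl1 were the ones with large HD-homo levels. Cxcl1 (90891245 to 90893121, plus strand, 4 coding exons) measured 1.83, 1.78 and 1.81 CPM in control, 0.645, 0.935 and 0.473 in the HD-het and 27.3, 69.5 and 29.9 in HD-homo libraries. The lines did not overlap, and the HD-homo libraries stood far above every other. Cxcl1 was 23.3-fold higher in HD-homo than control cells (log2FC 4.54, SE 0.37, adjusted p = 1.75e-06) and higher than HD-het cells by 5.87 on the log2 scale (SE 0.42, adjusted p = 3.84e-07). The lower level in HD-het cells (log2FC -1.33, SE 0.50, adjusted p = 0.0372) was lost without any 1 control library, HD-het 1 or HD-het 3, with adjusted p-values of 0.0614 to 0.105.

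Ppbp, the platelet basic protein whose cleaved forms attract neutrophils, was scarce in control and abundant in HD-homo cells. Its gene (90768518 to 90770063, plus strand, 3 coding exons) had 7, 26 and 8 counts in control, 39, 30 and 40 in the HD-het and 16926, 8882 and 19372 in HD-homo libraries, the last being 471, 339.5 and 859 CPM. Each HD-homo library exceeded every other library by far, and the control and HD-het libraries were separate in CPM. The log2FC was 10.33 against control (SE 0.48, adjusted p = 2.08e-08) and 8.70 against HD-het cells (SE 0.43, adjusted p = 2.58e-08).

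A smaller rise of Ppbp in HD-het over control cells (log2FC 1.63, SE 0.62, adjusted p = 0.0403) was lost without control 1, control 3, HD-het 1, HD-het 3 or HD-homo 1 (adjusted p 0.0543 to 0.123). Pf4, its neighbour and the other chemokine of platelet granules, had at most 1 count in any library, and the megakaryocyte genes Gp1ba, Gp1bb, Gp9 and Gp6 were at 0. The integrin gene Itga2b, also on the platelet list, measured 1.06 CPM on average in control, 1.23 in the HD-het and 6.14 in the HD-homo cells.

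Cxcl5, immediately before Ppbp on the chromosome (90759298 to 90761625, plus strand, 4 coding exons), was low throughout. It had 8, 6 and 1 counts in control, 0 in each HD-het and 8, 10 and 10 in HD-homo libraries. Against a floor of 3 counts per library, the limit that a count of 0 allows, it was at least 1.44-fold lower in HD-het than control cells and HD-homo exceeded HD-het cells at least 3.10-fold. Without the low-count filter the adjusted p was 0.00733 for HD-het and 0.198 for HD-homo against control cells.

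Cxcl10, the interferon-induced ligand of Cxcr3, increased in steps from control to HD-het to HD-homo cells. Its gene (chromosome 5, 92346638 to 92348889, minus strand, 4 coding exons) measured 0.535, 0.452 and 0.489 CPM in control, 1.52, 1.79 and 1.28 in the HD-het and 79.4, 167 and 105 in HD-homo libraries. The lines did not overlap at any step. The log2FC was 1.67 in HD-het against control cells (SE 0.42, adjusted p = 0.00497), 7.90 in HD-homo against control cells (SE 0.33, adjusted p = 8.88e-09) and 6.23 between the mutant lines (SE 0.29, adjusted p = 1.39e-08). Left out 1 library at a time, these values ran from 1.51 to 1.75, from 7.56 to 8.12 and from 5.89 to 6.45. Cxcl10 lies within the annotated Art3 locus, so footprints there depend on how the counting treated overlapping genes.

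**Figure D2:**
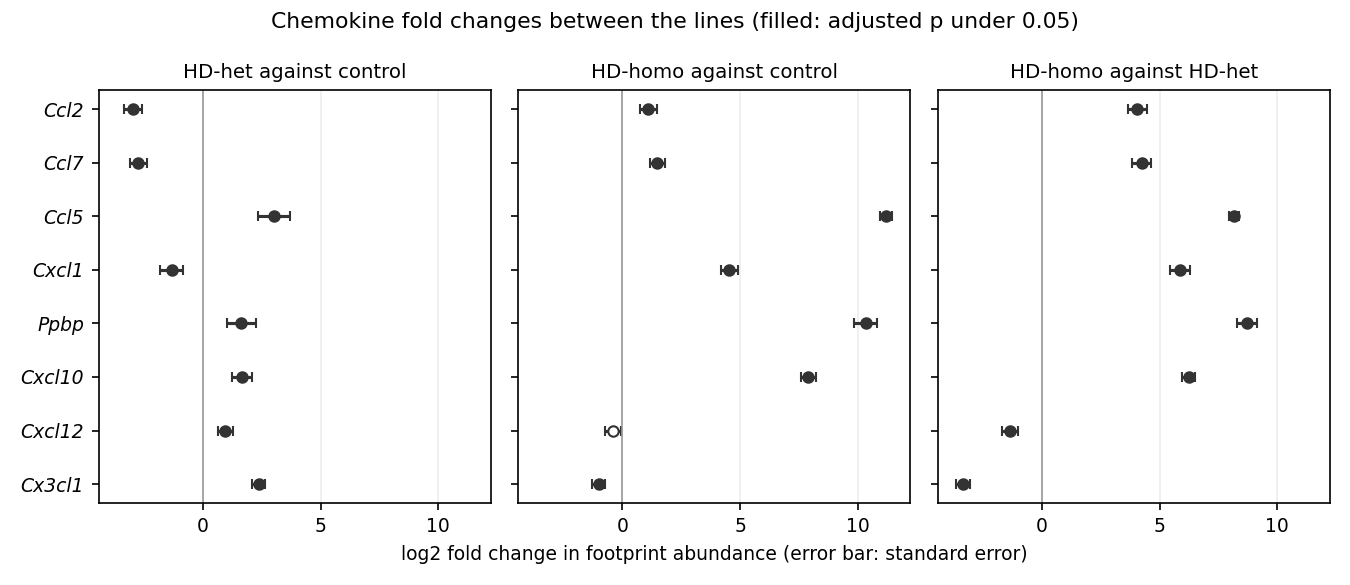
Fitted log2FC of the 8 chemokines tested in each comparison, with the standard error as a bar and filled points for an adjusted p under 0.05. Ccl2, Ccl7 and Cxcl1 lie below 0 in HD-het and above 0 in HD-homo against control cells, Cxcl12 in HD-homo is the open point, and the Ccl5 values against control depend on a control level of 2 counts in all.

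The last pair had its highest levels in HD-het cells. Cxcl12, the ligand of Cxcr4 and Ackr3 that holds progenitor cells in place and guides neurons in development, lies on chromosome 6 (117168535 to 117181368, plus strand, 3 coding exons in the coding model used). It measured 50.7, 52.1 and 46.3 CPM in control, 78.1, 74.6 and 138 in the HD-het and 29.4, 21.6 and 62.1 in HD-homo libraries. HD-het was separate from both other lines, while HD-homo 3 lay above the control range and the other HD-homo libraries below it.

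The HD-het level of Cxcl12 was 1.94-fold that of control cells (log2FC 0.96, SE 0.33, adjusted p = 0.0274), and HD-homo was lower than HD-het cells by a log2FC of -1.36 (SE 0.34, adjusted p = 0.00385). The first call was lost without any 1 control library (adjusted p 0.0551 to 0.0717) and without HD-het 3 (0.60 on the log2 scale, adjusted p = 0.144). For HD-homo against control cells the log2FC was -0.41 (SE 0.34, adjusted p = 0.349), and it passed the threshold without HD-homo 3 (-0.96, adjusted p = 0.0123).

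Cx3cl1, or fractalkine, is made as a membrane-bound adhesion molecule and is released by Adam10 and Adam17. Its gene (chromosome 8, 94772180 to 94782427, plus strand, 3 coding exons) measured 87.0, 104 and 51.5 CPM in control, 416, 485 and 348 in the HD-het and 56.9, 27.1 and 36.3 in HD-homo libraries. HD-het stood above all other libraries, and HD-homo 1 reached into the control range. Cx3cl1 was 5.15-fold higher in HD-het than control cells (log2FC 2.36, SE 0.29, adjusted p = 3.79e-05) and lower in HD-homo than HD-het cells by -3.37 on the log2 scale (SE 0.30, adjusted p = 2.27e-06).

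In HD-homo against control cells the log2FC of Cx3cl1 was -1.01 (SE 0.28, adjusted p = 0.0127), and it was lost without control 2 (-0.79, adjusted p = 0.0554). The summed microglial markers were highest in the same HD-het libraries, mostly through Tmem119 with means of 5.43 CPM in control, 21.2 in the HD-het and 4.39 in the HD-homo cells. The summed mesenchymal markers were highest there too, though not every gene of that list. Their part in the Cx3cl1 level was not tested. On the microglia and macrophage list, Cx3cr1 and Tyrobp were at 0, while Cd68 averaged 2.38 CPM in control, 5.19 in the HD-het and 2.47 in the HD-homo cells. Gm51543, a long noncoding RNA gene, overlaps Cx3cl1 in the annotation.

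To compare genes with one another, CPM were divided by coding length to give a level per kilobase. In control cells Ccl2 led with 521 ± 11.9 CPM per kilobase (SD, n = 3), followed by Cxcl12 with 184 ± 11.2 and Ccl7 with 173 ± 24.8, which overlapped each other, and by Cx3cl1 with 68.0 ± 22.5. The remaining genes were at most 6.21 CPM per kilobase on average.

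Cxcl12 with 358 ± 131 and Cx3cl1 with 350.5 ± 57.8 CPM per kilobase shared the lead in HD-het cells, their libraries overlapping, ahead of Ccl2 with 67.1 ± 10.8 and Ccl7 with 25.7 ± 4.14. In HD-homo cells Ppbp averaged 1627 ± 789.9, Ccl2 1115 ± 717, Ccl7 485 ± 302 and Cxcl10 395 ± 152 CPM per kilobase, with overlap between each of these and the next. Ccl5 followed with 216 ± 25.0, and Cxcl1, Cxcl12 and Cx3cl1 averaged 145, 139.6 and 33.7. Within each HD-homo library both Ppbp and Ccl2 exceeded Ccl7, while Ccl2 led Ppbp in HD-homo 2 and not in the other libraries, so the order of Ppbp and Ccl2 is not settled.

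The make-up of the chemokine footprints changed accordingly, as shares of the summed per-kilobase level of the 10 genes. Ccl2 held 54.5% ± 0.806 in control, 8.30% ± 1.76 in the HD-het and 26.3% ± 13.9 in the HD-homo cells (SD, n = 3). Cx3cl1 and Cxcl12 together made up most of the HD-het level, with 43.4% ± 9.39 and 43.3% ± 12.1. Ppbp held 40.1% ± 19.5 in HD-homo cells, with 40.4%, 20.5% and 59.5% in its libraries, against 0.120% ± 0.0552 in control and 0.499% ± 0.174 in HD-het cells. Summed over the 10 genes, the CPM were 417 ± 29.3 in control, 555 ± 46.2 in the HD-het and 1495 ± 266 in the HD-homo cells.

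**Figure D3:**
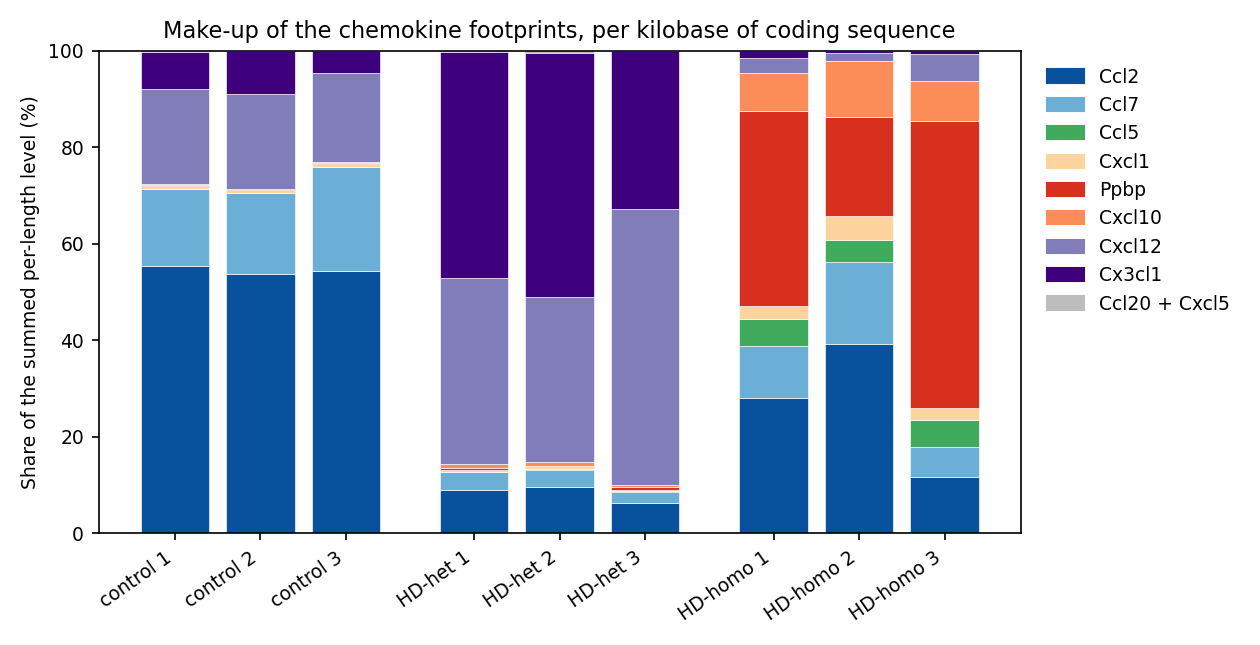
Share of each chemokine in the summed footprint level per kilobase of coding sequence, in percent, with 1 stacked bar per library. Ccl2 forms the largest piece of each control bar, Cx3cl1 and Cxcl12 most of each HD-het bar, and the HD-homo bars differ among themselves, with Ppbp at 20.5% in HD-homo 2 and 59.5% in HD-homo 3.

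For Ccl2, Ccl7, Cxcl1, Cxcl10, Cxcl12 and Cx3cl1 the coefficient of variation over replicates was larger in HD-homo than in the other lines. That of Ccl2 was 64.3% in HD-homo cells, against 2.29% in control and 16.2% in HD-het cells. HD-homo 2 held the highest level of its line for Ccl2, Ccl7, Cxcl1 and Cxcl10 and the lowest for Ppbp, Cxcl12 and Cx3cl1. Rel, an NF-kB subunit, was also highest in HD-homo 2, with 20.9, 46.5 and 21.4 CPM in HD-homo libraries. The interferon regulatory gene Irf7 was instead lowest in HD-homo 2. Other genes known to induce chemokines were not compared in this way, and the part of any of them in these levels was not tested.

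Genes near the chemokines on the same chromosomes varied in how far they followed their neighbours. Behind Ccl2 and Ccl7 on chromosome 11, the eosinophil attractant Ccl11 had 17, 20 and 29 counts in control, 2, 3 and 2 in the HD-het and 34, 64 and 17 in HD-homo libraries, and was lower in HD-het than control cells (log2FC -3.04, SE 0.71, adjusted p = 0.00319) but not called in HD-homo against control cells (0.94, adjusted p = 0.103). Past Ccl11, the low-count genes Ccl12 and Ccl8 were not tested and went the other way in HD-het cells. Ccl12 averaged 0.0205 CPM in control, 0.118 in the HD-het and 0.119 in the HD-homo cells, and Ccl8 averaged 0.0647, 0.392 and 0.122. For both genes the HD-het libraries lay above the control libraries without overlap. Next to Ccl5, the macrophage chemokine Ccl9 measured 2.25, 2.69 and 2.41 CPM in control, 0.721, 0.550 and 1.66 in the HD-het and 16.4, 18.8 and 19.7 in HD-homo libraries. Its log2FC was -1.43 in HD-het (SE 0.30, adjusted p = 0.00167) and 2.89 in HD-homo against control cells (SE 0.24, adjusted p = 1.98e-06).

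Around Cxcl1 and Ppbp on chromosome 5, the low-count genes Cxcl2 and Cxcl3 were not tested. Cxcl3, a further Cxcr2 ligand, had 0, 1 and 0 counts in control, 0 in each HD-het and 9, 8 and 3 in HD-homo libraries, separate from the other lines, and the ratio of pooled counts of HD-homo over control cells was 22.4 (95% exact interval 3.58 to 928). Cxcl2 had at most 8 counts in any library, and its ratio of pooled counts of HD-homo over HD-het cells was 4.62 (1.29 to 25.1), with overlap between the libraries. Cxcl11, beside Cxcl10 and annotated as a transcribed pseudogene in this assembly, had 0, 0 and 1 counts in control, 4, 2 and 1 in the HD-het and 28, 25 and 30 in HD-homo libraries. On chromosome 8, Ccl17, a ligand of Ccr4 just past Cx3cl1, measured 2.22, 1.97 and 1.88 CPM in control, 19.1, 21.4 and 22.7 in the HD-het and 0.834, 0.497 and 0.709 in HD-homo libraries. It had the same order of lines as Cx3cl1, with a log2FC of 3.38 in HD-het (SE 0.15, adjusted p = 3.00e-08) and -1.54 in HD-homo against control cells (SE 0.20, adjusted p = 7.29e-05), while Ccl22 on the other side of Cx3cl1 was at 0 in every library.

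**Figure D4:**
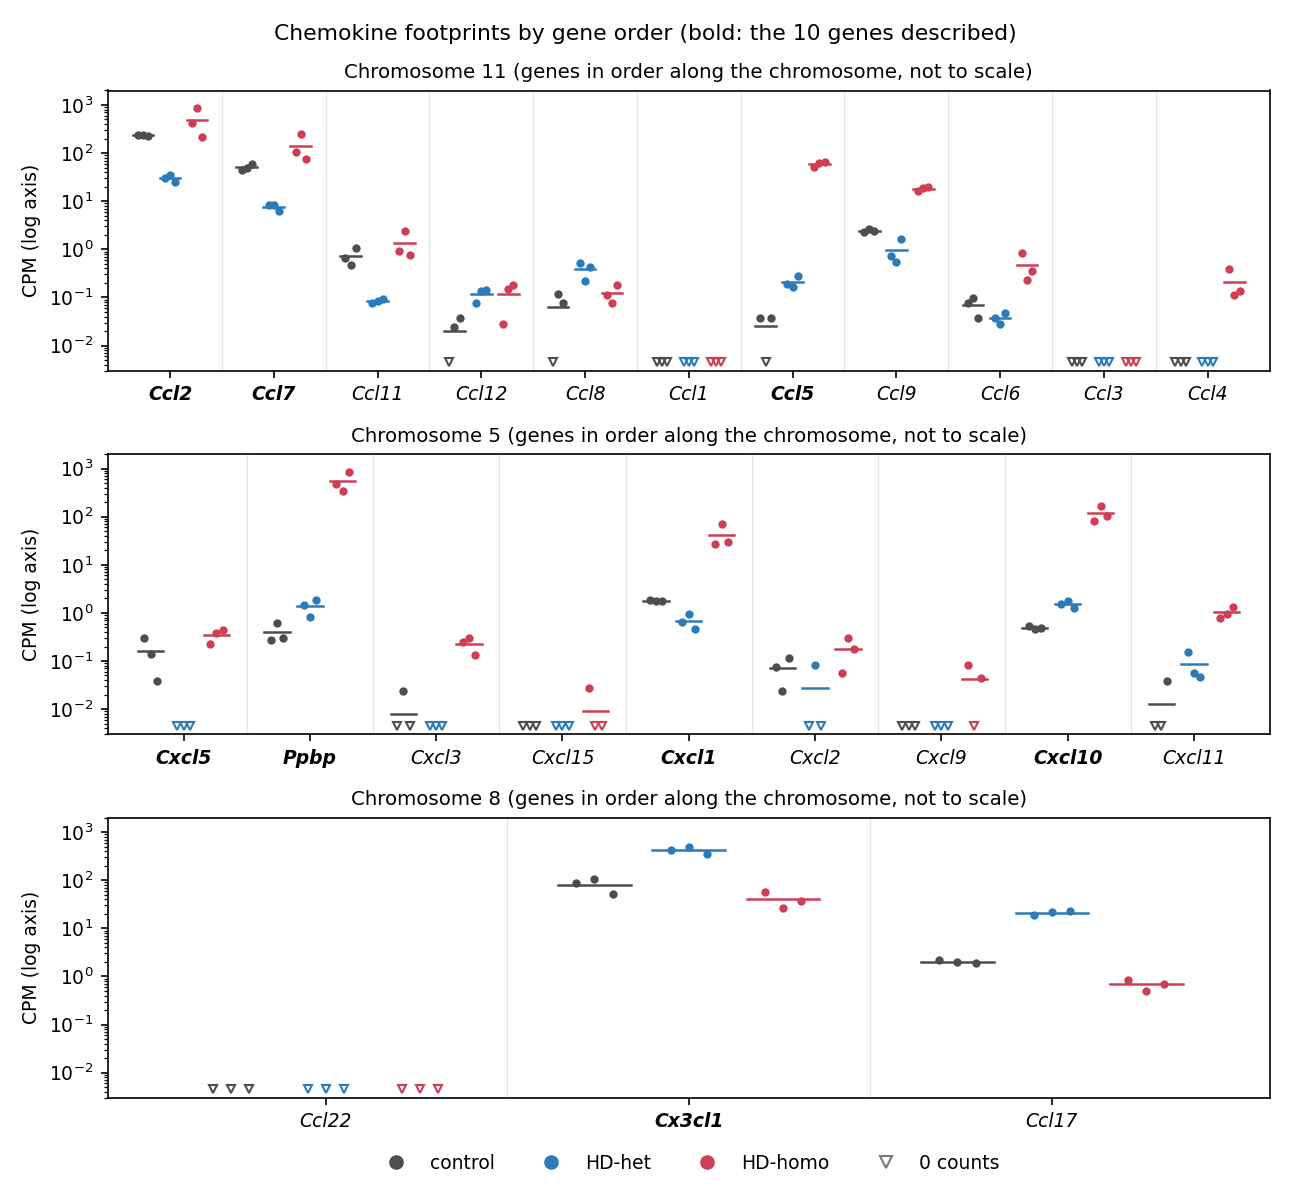
CPM of chemokine genes in their order along chromosomes 11, 5 and 8, on a log axis, with 1 point per library, a bar at the mean and open triangles for a count of 0. Ccl2, Ccl7 and Ccl11 share a dip in HD-het cells that the low-count genes Ccl12 and Ccl8 beside them do not show. Cx3cl1 and Ccl17 share a peak in HD-het cells, and Ccl1, Ccl3 and Ccl22 have no counts.

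Of 31 further chemokine genes, 11 were at 0 in every library and 7 passed the filter. In HD-het against control cells 2 were higher (Ccl17 and Cxcl14) and 4 lower (Ccl9, Ccl11, Ccl25 and Cxcl16), with a median log2FC of -1.29 beside 0.02 over all genes. In HD-homo against control cells 2 were higher (Ccl9 and Cxcl11) and 2 lower (Ccl17 and Cxcl14), with a median of 0.65, and between the mutant lines 5 were higher and 2 lower in HD-homo, with a median of 2.26. Cxcl11 passed the filter only through its HD-homo libraries, so its higher level there was built into its being tested and into these counts. Over all genes tested, 31.0% were higher and 29.1% lower in HD-het against control cells. The shares were 23.3% and 22.3% in HD-homo against control cells, and 34.6% and 32.8% in HD-homo against HD-het cells. Cxcl14, a chemokine of epithelia and neurons, measured 6.68, 6.90 and 5.19 CPM in control and 17.1, 16.1 and 25.1 in HD-het libraries but had only 1, 2 and 0 counts in HD-homo. Its log2FC in HD-het against control cells was 1.62 (SE 0.19, adjusted p = 3.40e-05), and the ratio of pooled counts of control over HD-homo cells was 179.5 (95% exact interval 61.1 to 873).

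Most receptors of these chemokines were at or near a count of 0. Of 24 receptor genes, 11 were at 0 in every library, among them Ccr2, Cxcr3 and Cx3cr1, which receive Ccl2 and Ccl7, Cxcl10 and Cx3cl1 in turn. Cxcr2, the receptor of Cxcl1, Cxcl5 and Ppbp, had at most 4 counts and Ccr6, that of Ccl20, at most 1. The 4 receptors that passed the filter, Ackr3, Ccr1, Cxcr4 and Cxcr6, were all called, 2 higher and 2 lower, in each of the 3 comparisons, with median log2FC values of 1.09 in HD-het against control, 0.01 in HD-homo against control and -1.31 in HD-homo against HD-het cells. Over all genes tested, 31.0% were higher and 29.1% lower in HD-het against control cells. The shares were 23.3% and 22.3% in HD-homo against control cells, and 34.6% and 32.8% in HD-homo against HD-het cells.

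The Cxcl12 receptors Cxcr4 and Ackr3 went in opposite directions. Cxcr4, which signals through G proteins, had 16, 16 and 19 counts in control, 101, 183 and 156 in the HD-het and 2, 1 and 2 in HD-homo libraries, with a log2FC of 3.28 in HD-het (SE 0.30, adjusted p = 5.01e-06) and -3.13 in HD-homo against control cells (SE 0.59, adjusted p = 0.00124). Ackr3, which takes up Cxcl12 without G protein signalling, measured 16.4, 18.3 and 17.0 CPM in control, 4.63, 4.37 and 3.40 in the HD-het and 198, 125 and 138 in HD-homo libraries. The lines did not overlap for either receptor, and the log2FC of Ackr3 was -2.05 in HD-het (SE 0.18, adjusted p = 4.38e-06) and 3.15 in HD-homo against control cells (SE 0.17, adjusted p = 6.34e-08).

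Ccr1, a receptor of Ccl5 and Ccl7, had 0, 0 and 1 counts in control, 9, 20 and 6 in the HD-het and 157, 30 and 68 in HD-homo libraries. It passed the filter only through its HD-homo libraries, so its calls there were built into its being tested. Cxcr6, the receptor of Cxcl16, had 35, 63 and 42 counts in control, 19, 29 and 10 in the HD-het and 1, 0 and 0 in HD-homo libraries. It was lower in HD-het than control cells by a log2FC of -1.11 (SE 0.26, adjusted p = 0.00321), and the ratio of pooled counts of control over HD-homo cells was 125 (95% exact interval 22.1 to 4972).

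**Figure D5:**
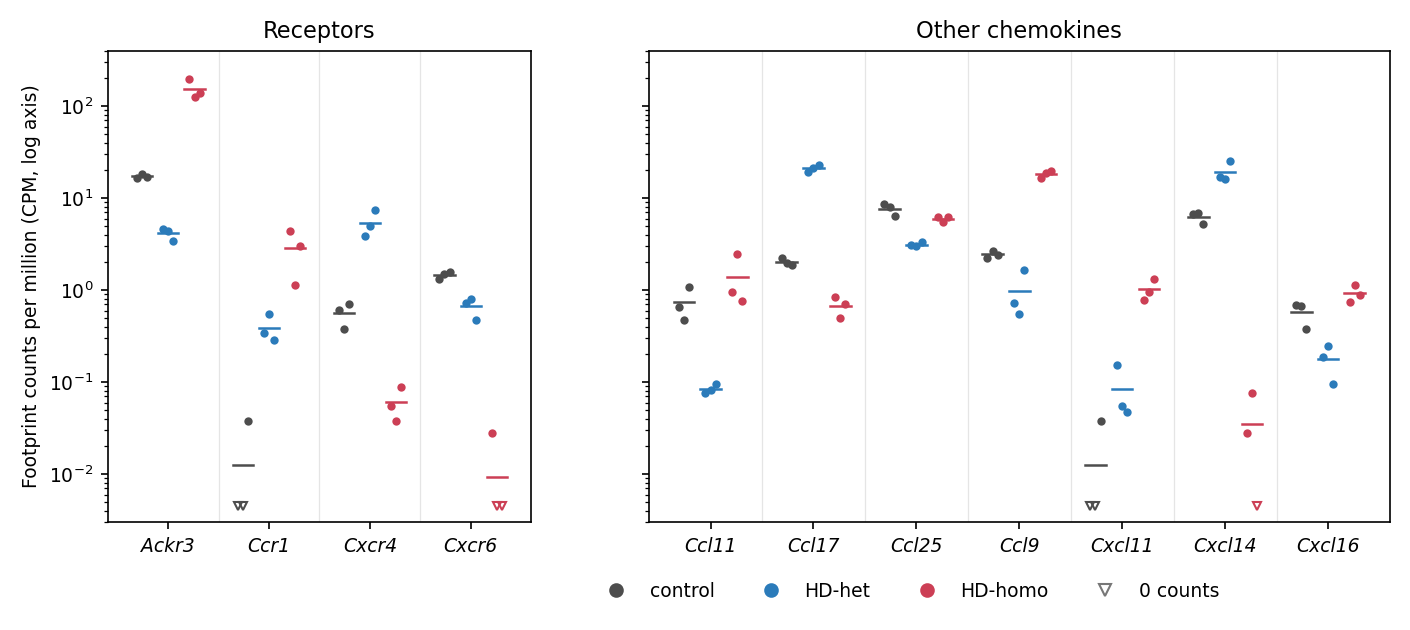
CPM of the 4 chemokine receptors and 7 further chemokines that passed the filter, on a log axis, with 1 point per library, a bar at the mean of 3 and open triangles for a count of 0. Cxcr4, Ccl17 and Cxcl14 are highest in HD-het cells, and Ackr3, Ccr1, Ccl9 and Cxcl11 in HD-homo cells.

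Genes that cut, anchor or present chemokines were mostly higher in HD-het cells. Of 13 such genes, 11 were tested, of which 9 were higher and none lower in HD-het than control cells, with a median log2FC of 1.05, beside 31.0% higher and 29.1% lower over all genes. The summed mesenchymal markers were also highest in the HD-het libraries. Col1a1, Col3a1, Fn1, Acta2 and Pdgfrb had that order, whereas Col1a2, Dcn and Lum were highest in HD-homo cells. The part of the mesenchymal markers in this count was not tested. Among the 9 genes the Cx3cl1 sheddase Adam10 averaged 106 CPM in control, 235 in the HD-het and 91.8 in the HD-homo cells (HD-het against control: log2FC 1.14, SE 0.19, adjusted p = 3.47e-04), and Adam17 averaged 34.3, 61.4 and 22.9 CPM (0.84, SE 0.16, adjusted p = 8.07e-04). The syndecan Sdc4, whose heparan sulfate chains hold chemokines at the cell surface, averaged 401, 832 and 587 CPM and was higher in both mutant lines.

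In HD-homo against control cells 3 genes of this list were higher and 2 lower (median log2FC -0.02), and between the mutant lines 1 was higher and 8 lower in HD-homo, with a median of -1.12. The shares over all genes were 23.3% and 22.3% in HD-homo against control cells, and 34.6% and 32.8% between the mutant lines. Mmp2, a protease that clips Cxcl12 and Ccl7, was the one higher there: it measured 18.4, 20.3 and 13.9 CPM in control, 48.3, 49.4 and 67.1 in the HD-het and 157, 114 and 173 in HD-homo libraries (HD-homo against control: log2FC 3.07, SE 0.20, adjusted p = 3.00e-07).

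Among 18 NF-kB, interferon regulatory and AP-1 genes known to induce chemokines, all of them tested, 5 were higher and 6 lower in HD-het than control cells, with a median log2FC of -0.01, near the shares of 31.0% and 29.1% over all genes. In HD-homo cells 11 were higher and 2 lower than control cells, with a median of 0.61, beside 23.3% and 22.3% of all genes. Against HD-het cells 13 were higher and 2 lower in HD-homo, with a median of 1.03, beside 34.6% and 32.8% of all genes. Bcl3, counted among the higher genes, passed the filter only through its HD-homo libraries. Irf7, which amplifies the interferon response, had the largest fold change of the list in HD-homo against control cells. It had 6, 5 and 3 counts in control, 30, 31 and 11 in the HD-het and 224, 87 and 122 in HD-homo libraries (log2FC 2.49, SE 0.47, adjusted p = 8.73e-04 in HD-het, and 5.04, SE 0.39, adjusted p = 1.26e-06 in HD-homo against control cells). Irf9 averaged 1.76, 5.97 and 19.6 CPM in control, then HD-het, then HD-homo cells, and was called in all 3 comparisons. Irf3 and Jun were the 2 genes lower in HD-homo than in control and HD-het cells. For Irf3 the log2FC was -0.58 in HD-homo against control cells (SE 0.11, adjusted p = 0.00124).

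Nfkb1, Nfkb2 and Rela, which encode NF-kB subunits, were lower in HD-het than control cells and were not called in HD-homo against control cells. The subunit genes Rel and Relb were instead called higher in HD-homo than in control and HD-het cells, and not called in HD-het against control cells. Nfkb2 averaged 101 CPM in control, 39.0 in the HD-het and 95.8 in the HD-homo cells, lower in HD-het than control cells (log2FC -1.38, SE 0.09, adjusted p = 5.89e-07) and with a log2FC of -0.08 in HD-homo against control cells (adjusted p = 0.501). Rela, the subunit that activates many chemokine genes, averaged 61.2, 41.6 and 61.9 CPM, a log2FC of -0.56 in HD-het (SE 0.09, adjusted p = 3.06e-04) and 0.02 in HD-homo against control cells (adjusted p = 0.891). Nfkbia, an inhibitor of NF-kB and itself an NF-kB target, averaged 53.2, 24.0 and 82.4 CPM, lower in HD-het and higher in HD-homo than control cells (-1.15, adjusted p = 1.54e-04, and 0.63, adjusted p = 0.00894).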

How the data were processed

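Footprint counts came from 9 libraries, 3 for each of control, HD-het and HD-homo cells, grouped by their titles. The values are raw counts of protected fragments by gene symbol, which the authors deposited as 1 column per library, neither normalized nor pooled. The submitters' processing notes name cutadapt, Bowtie 1.0.1 and build mm10, while the counting program, annotation and use of strand are not given in the sources used here. Fragments shared by close paralogs such as Ccl2 and Ccl12 or Cxcl1, Cxcl2 and Cxcl3, and fragments of overlapping genes, could thus be assigned in more than 1 way. Library totals of 22504543 to 41888701 put a floor of 3 counts at 0.0716 to 0.133 CPM, and floors and exact 95% intervals cover counting error only.

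A single edgeR model (version 4.0.16, with limma 3.58.1 and R 4.3.3) was fitted to the counts of all 9 libraries, with TMM factors of 0.928 to 1.05, a term for the line alone and genes chosen by filterByExpr. Contrasts were tested with its quasi-likelihood F test, with Benjamini-Hochberg adjustment over 12678 genes and a threshold of 0.05. CPM use TMM-scaled totals. Coding lengths, gene positions and overlaps were taken from the RefSeq annotation of GRCm38.p6 and a length is that of the RefSeq Select coding sequence or, without one, of the longest. The fit was tested on simulated data. Among the 9 pairs of same-numbered libraries from different lines, correlations of deviations from the group means ran from -0.36 to 0.17 and 1 exceeded 0.1, so the numbers were not taken as pairs.

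The chemokines and the lists were chosen with earlier results of these data known. Genes of lists were named if they passed the threshold against control with a mean of at least 1 CPM in some line, and others named were chosen after their values were seen. For each chemokine tested, the 3 genes most like it were those with the highest Pearson r of log2(CPM + 0.5) among 11553 genes, leaving out chemokines and predicted genes. The alternatives were RLE factors, total counts, DESeq2 1.42.0, other filters, a fit of just the 6 libraries of a contrast, a replicate block, stricter thresholds and leaving out each library in turn.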

Additional observations from a re-analysis of the deposited data

How the results depend on the processing

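Of 401 recomputed fold changes of the 8 chemokines, 375 kept their direction and their side of the threshold, 25 kept the direction but missed the threshold, 1 newly passed it and none reversed. The losses fell on 5 results: Cxcl1, Cxcl12 and Ppbp in HD-het and Ccl2 and Cx3cl1 in HD-homo against control cells. Of the chemokines higher in HD-het than control cells, 3 in place of 5 passed with at least 10 counts in every library, which leaves out Ccl5 and Ppbp, and 3 at an adjusted p under 0.01. Leaving out 1 library gave 3 to 6. Of the chemokines lower in HD-homo than control cells, 0 in place of 1 passed at an adjusted p under 0.01, and leaving out 1 library gave 0 to 2. Over all genes, a change of at least 2-fold left 1760 higher and 876 lower in HD-het against control cells, 1134 and 1048 in HD-homo against control cells, and 1403 and 2057 in HD-homo against HD-het cells. With the replicate number as a block the counts of chemokines were the same, at 5 higher and 3 lower, 6 and 1, and 6 and 2, and all genes higher in HD-het against control cells numbered 3825. The replicate block changed no call of a chemokine. Depth limits Ccl20, Cxcl5 and the control level of Ccl5, which lie near the floor.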

Other observations

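Downstream of the chemokine receptors, 15 of 19 signalling genes were tested. Of these, 3 were higher and 7 lower in HD-het than control cells, 3 higher and 3 lower in HD-homo than control cells, and 6 higher and 5 lower in HD-homo than HD-het cells, with median log2FC values of -0.17, -0.03 and 0.10. Over all genes tested, the shares higher and lower were 31.0% and 29.1%, 23.3% and 22.3%, and 34.6% and 32.8% in the same order. Rgs16, which shortens the signal of receptors coupled to inhibitory G proteins, fell in both mutant lines: it measured 131, 130.2 and 139 CPM in control, 23.3, 23.5 and 17.4 in the HD-het and 1.78, 2.29 and 2.44 in HD-homo libraries (log2FC -2.64, SE 0.13, adjusted p = 5.81e-08 in HD-het, and -5.96, SE 0.16, adjusted p = 4.34e-10 in HD-homo against control cells). Gnai1, an inhibitory G protein subunit that such receptors use, averaged 5.38 CPM in control, 29.5 in the HD-het and 7.07 in the HD-homo cells, and was higher in HD-het than control cells by a log2FC of 2.45 (SE 0.21).

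Many chemokine messages carry AU-rich elements or stem-loops that RNA-binding proteins recognise, and 9 of 10 genes for regulators of their stability were tested. The list mixes roles: Zfp36 and its relatives promote decay, Elavl1 stabilises AU-rich messages, and Rc3h1 and Zc3h12a recognise stem-loops. In HD-het against control cells 1 was higher and 6 lower, Elavl1 among the latter, in HD-homo against control cells 1 higher and 1 lower, and between the mutant lines 5 higher and 1 lower in HD-homo, with median log2FC values of -0.38, 0.00 and 0.33. Over all genes tested, the shares higher and lower were 31.0% and 29.1%, 23.3% and 22.3%, and 34.6% and 32.8% in the same order. Zfp36l1 and Zfp36l2, which promote decay of such messages, were both lower in HD-het than control cells. Zfp36l1 averaged 34.1, 21.5 and 81.3 CPM in control, then HD-het, then HD-homo cells (log2FC -0.66, SE 0.12, adjusted p = 5.89e-04 in HD-het, and 1.25, SE 0.12, adjusted p = 5.89e-06 in HD-homo against control cells), and Zfp36l2 averaged 215, 105.5 and 258 CPM. Zfp36, or tristetraprolin, averaged 8.43, 11.8 and 8.33 CPM and was higher in HD-het than control cells (0.48, SE 0.14, adjusted p = 0.0127).

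The genes most like each chemokine over the 9 libraries are given as a description, since the 9 points come from only 3 lines and share their libraries and depth. Ccl2 was most like Pfkm (r = 0.992), Acot13 and Nfkbie, and Ccl7 most like N4bp3 (r = 0.995), Rad54l and Neil3. Ccl5 was most like Xlr (r = 0.999), Pla2r1 and Ifit1bl1, Cxcl10 most like Tfcp2l1 (r = 0.997), Tmem141 and Gbp7, and Ppbp most like Rbpms (r = 0.999), Gbp3 and Cyp1b1. Xlr, Pla2r1, Ifit1bl1 and Gbp7 averaged at most 0.203 CPM in control and HD-het cells. An r near 1 with genes so near the floor there says little beyond a high HD-homo level. Cxcl1 was most like Fmr1 (r = 0.993), Fam241a and Depdc7. Cxcl12 was most like Soat1 (r = 0.985), Mettl3 and Zik1, and Cx3cl1 most like Slc4a7 (r = 0.996), Ptprs and Paqr4.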
